A study of Mus musculus with 2 samples.

Results

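The 33 genes described here serve the DNA damage checkpoint and DNA repair. They were taken by gene symbol from the 27998 genes listed for 2 droplet libraries of single cells, made from the peripheral part of the mouse retina at postnatal day 8, and all 33 were found in both. By role, 9 act in homologous recombination, 10 are damage kinases, checkpoint mediators or their substrates, 4 belong to the Fanconi pathway, 3 form the break sensing complex and 2 form the Ku heterodimer of end joining. Another 2 serve single strand break and base repair, and mismatch repair, cohesin and post-replication repair have 1 each. Both genotypes carry alphaCre, a transgene that deletes in the peripheral retina, with floxed Rb (Rbf/f) and no p107 (p107-/-). The DKO_Skp2het library comes from retina that has also lost 1 copy of Skp2 (skp2+/-) and is labelled tumor-resistant, and the DKO library from retina without that change, labelled tumor-prone. The title of the series concerns the length of the cell cycle and the capacity for transformation. With 1 library per genotype, the differences have no replicates behind them and no test was made. All intervals are exact 95% intervals that cover counting error only. How many animals each library pools is not given in the sources used here, and cells that Cre did not recombine could not be told apart.

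Dividing cells copy their DNA with errors and stalled forks, and they depend on a checkpoint in which the kinases ATR and ATM signal through CHK1, CHK2 and WEE1 to hold the cycle until damage is repaired. Homologous recombination, led by BRCA1 and BRCA2, needs a sister chromatid and works in S and G2 phase, whereas the Ku proteins join broken ends in any phase. Rb and p107 restrain the E2F factors, and many genes of replication and recombination are E2F targets.

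The DKO_Skp2het library held 5196 barcodes with a median of 3874 UMIs (unique molecular identifiers, each counting 1 captured transcript), and the DKO library 3621 barcodes with a median of 4939. After filters and doublet removal 4978 DKO_Skp2het and 3515 DKO cells were kept, with medians of 3799 and 4866 UMIs, and 30 barcodes occurred in both libraries. Skp2 stood at 57.0 CPM (UMI counts scaled to a library sum of 1000000) in DKO_Skp2het cells and 80.7 CPM in DKO cells, a ratio of 0.706 (0.658 to 0.757). In low-cycle cells Skp2 stood at 27.4 CPM in DKO_Skp2het and 20.4 CPM in DKO (129 and 74 UMIs, 1.34, 0.999 to 1.81). Rb1 and Rbl1, which encodes p107, were counted from their 3′ ends, which does not check their deletion. Cells were sorted into states after each was thinned to 1500 UMIs, with 40 S phase genes and 26 mitotic genes, none of them among the 33. Cells with 3 or more UMIs of either list were called dividing and the others low-cycle, so S phase genes alone were enough for the call. Dividing cells made up 81.4% (80.3 to 82.5) of DKO_Skp2het cells and 85.0% (83.8 to 86.2) of DKO cells. In microglia-like cells, taken as background, 12.2% (5 of 41 cells, median depth 7519 UMIs) and 10.0% (3 of 30, 9424 UMIs) were called dividing. The calls are a range and not a type, since 311 and 168 low-cycle cells lay 1 UMI below the limit.

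The 33 genes were detected at very different depths, from H2afx with 16342 UMIs in the DKO_Skp2het library and 17658 in the DKO library to Fanci with 99 and 97. H2afx, Usp1, Rad21, Topbp1, Parp1, Clspn, Rad51ap1 and Xrcc1 had the most UMIs. A 3′ tag count is not scaled for capture and priming, so levels of different genes were not compared. In the annotation 19 of the 33 genes overlap a gene on the other strand and 6 overlap one on the same strand, and 11 overlap none. Whether the authors' counting used the strand is not given in the sources used here, so values of overlapping genes may hold reads of their partners.

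Nearly all of the 33 genes were more abundant in dividing than in low-cycle cells, in both libraries. In DKO_Skp2het cells 32 of 33 lay above 0 with a median log2 difference of 1.40, and in DKO cells 32 of 33 with a median of 1.36. Over all genes with at least 50 UMIs the medians were -0.08 and -0.08. Differences are those of log2(CPM + 5), a scale that understates differences of low genes. More than 2-fold higher were 22 of the 33 in DKO_Skp2het cells, against 7.12% of all genes measured, and 22 in DKO cells, against 6.88%. The call can rest on replication genes, and many of these are E2F targets, as are many recombination genes. It is thus not independent of the levels compared here. Whether cells called dividing were in division was not tested. None was more than 2-fold lower, against 10.2% and 10.6% of all genes. Dividing and low-cycle cells had nearly the same depth, with medians of 3800 and 3796 UMIs in DKO_Skp2het and 4859 and 4963 in DKO. With the mitotic list alone deciding the state, the counts past 2-fold were 12 in DKO_Skp2het and 11 in DKO, and with a pseudocount of 20 CPM 14 and 13.

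Dividing and low-cycle cells also differed in cell type, and the gap was smaller within each of the 3 classes given here. Summed over the 33 genes, CPM was 2611 in dividing and 579 in low-cycle DKO_Skp2het cells, and 2680 and 606 in DKO cells. In rod-like cells the sums were 1560 and 631 CPM in DKO_Skp2het and 1655 and 711 CPM in DKO. Immature neuron-like cells had 1206 and 644 CPM in DKO_Skp2het and 1438 and 797 CPM in DKO. Bipolar-like cells had 810 and 570 CPM in DKO_Skp2het and 1167 and 580 CPM in DKO. Of the few genes with at least 50 UMIs within a class, the median log2 difference was 0.92 over 13 genes and 0.59 over 24 genes in immature neuron-like cells of DKO_Skp2het and DKO. In rod-like cells it was 0.90 and 0.96 over 6 genes each, and in bipolar-like cells of DKO_Skp2het 0.20 over 3 genes.

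Clspn, H2afx, Rad51ap1 and Usp1 had the largest log2 differences in both libraries. Clspn (GRCm38 chr4:126556935-126593903, + strand) encodes claspin, which brings CHK1 to ATR. It was at 92.2 CPM in dividing and 5.74 CPM in low-cycle DKO_Skp2het cells, a ratio of 16.1 (11 to 24.5), and at 96.2 and 5.25 CPM in DKO cells, a ratio of 18.3 (11.7 to 30.5). Rad51ap1, a recombination factor, was at 89.2 and 6.80 CPM in DKO_Skp2het cells (ratio 13.1, 9.26 to 19.3) and 94.2 and 6.36 CPM in DKO cells (ratio 14.8, 9.85 to 23.4). In every one of these pairs the dividing cells lay more than 10-fold above the low-cycle cells. Rad54l, a motor protein of strand exchange, was at 43.7 and 3.19 CPM in DKO_Skp2het cells and 41.6 and 3.32 CPM in DKO cells. The nuclease gene Exo1, which trims broken ends, was at 35.3 and 2.12 CPM, and at 37.9 and 4.70 CPM. All 9 recombination genes were past 2-fold in both libraries, with medians of 1.88 and 2.11, and they were spread over the order from Rad51ap1 down to Palb2 in DKO_Skp2het and Blm in DKO. For the helicase gene Brip1 the low-cycle DKO_Skp2het cells held 3 UMIs, so its ratio of 34.4 has an interval of 11.7 to 168. Brca1, which directs broken ends into recombination, was at 25.1 and 3.19 CPM in DKO_Skp2het cells (482 and 15 UMIs) and 27.2 and 2.49 CPM in DKO cells (539 and 9 UMIs). Palb2, which links BRCA1 to BRCA2, had log2 differences of 1.23 and 1.34, and Brca2 of 1.51 and 1.60. Bard1 had 1.60 and 2.12, and Blm 1.61 and 1.17.

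H2afx (ENSMUSG00000049932, GRCm38 chr9:44334694-44336077, + strand) encodes the histone variant H2AX, which is phosphorylated around breaks. It was at 829 CPM in dividing and 94.1 CPM in low-cycle DKO_Skp2het cells (ratio 8.81, 8.01 to 9.70) and at 872 and 108 CPM in DKO cells (8.07, 7.30 to 8.95). Topbp1, the activator of ATR, was at 133 and 20.6 CPM, and at 137 and 24.0 CPM. Usp1, which removes ubiquitin from FANCD2 and PCNA, was at 428 and 61.0 CPM in DKO_Skp2het cells, and at 421 and 62.2 CPM in DKO cells. The inhibitory kinase gene Wee1 had log2 differences of 2.03 and 2.27, Chek2 of 1.99 and 1.89, and Chek1 of 1.35 and 1.36. Fanca, a subunit of the Fanconi core complex, had 222 UMIs in dividing and 0 in low-cycle DKO_Skp2het cells. The exact lower limit of its ratio was 14.6, and against a floor of 3 counts over all low-cycle cells of the library it was 18.2-fold higher. In DKO cells it had 250 and 5 UMIs. Its partner on the other strand is Zfp276. With Fanca at the floor of 3 counts the DKO_Skp2het median stayed at 1.40. Fancd2 and Fanci, the pair that the core complex ubiquitinates, had only 10 and 8 low-cycle UMIs in DKO_Skp2het and 2 and 1 in DKO, too few to rank them.

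At the other end stood the apical kinases, the Ku genes and Trp53bp1. Trp53bp1 (GRCm38 chr2:121193281-121271407, - strand, with Tubgcp4 on the other) encodes 53BP1, which shields broken ends and favours end joining. It was the only one of the 33 lower in dividing cells in both libraries, at 27.8 and 37.2 CPM in DKO_Skp2het cells (ratio 0.749, 0.630 to 0.893) and 28.8 and 44.2 CPM in DKO cells (0.651, 0.546 to 0.781). The Ku gene Xrcc6 was at 21.1 and 19.3 CPM in DKO_Skp2het cells (1.09, 0.866 to 1.38) and 15.8 and 12.4 CPM in DKO cells (1.27, 0.925 to 1.77), so a difference was not detectable at this depth. Its partner Xrcc5 had log2 differences of 0.49 and 0.34, Atr of 0.19 and 0.37 and Atm of 0.59 and 0.48. Of the break sensing complex, Rad50 had 1.33 and 0.97, Mre11a 0.79 and 0.48, and Nbn 0.67 and 0.42. Between the extremes lay Rad18, the ubiquitin ligase gene of post-replication repair, at 1.60 and 1.79, and Xrcc1, the scaffold of single strand break repair, at 1.40 and 1.02. Parp1, which senses strand breaks, was at 92.6 and 46.3 CPM in DKO_Skp2het cells and 93.2 and 49.2 CPM in DKO cells. Mdc1 had 0.75 and 1.21, Msh6 1.23 and 0.89, and Rad21 1.21 and 1.43.

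**Figure D1:**
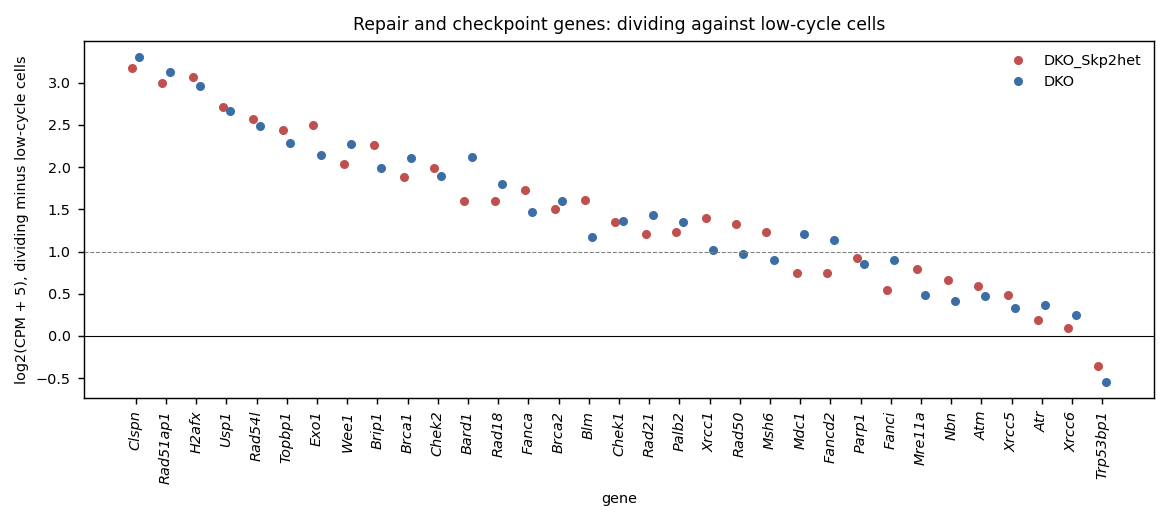
Each of the 33 genes is plotted by its difference in log2(CPM + 5) between dividing and low-cycle cells, in DKO_Skp2het (red) and DKO (blue), with 0 as a solid and 2-fold as a dashed line. Clspn, Rad51ap1 and H2afx stand highest, and Trp53bp1 lies below 0 in both libraries.

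The same split ran through other repair and checkpoint genes, of which 93 were listed and 91 measured. Their median log2 difference between dividing and low-cycle cells was 0.50 in DKO_Skp2het and 0.37 in DKO, with 25 and 23 past 2-fold higher and 2 and 2 past 2-fold lower. Further recombination genes had medians of 1.24 and 0.90, and further checkpoint genes 1.15 and 1.05. The 14 nucleotide excision repair genes had medians of -0.21 and -0.08, and none was past 2-fold higher. Neil3, a glycosylase gene of base repair, had the highest difference at 3.84 and 3.66. Ercc3, the helicase gene of transcription factor TFIIH, had the lowest at -1.74 and -1.84, with 193 and 213 UMIs in dividing and low-cycle DKO_Skp2het cells and 216 and 188 in DKO cells.

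Promoters of the genes at both ends of this order are shown because E2F factors, which Rb and p107 restrain, bind near the start of many replication and recombination genes. RefSeq windows of 300 bases on GRCm38.p6, with 250 bases before and 50 after the start, were found for 25 of the 33 genes. Capitals mark a match to 1 of 4 E2F words (TTTCCCGC, TTTGGCGC, TTTCGCGC, TTTGCCGC, on either strand) or to the cell cycle homology region word TTTGAA, on either strand. No word is contained in another. The windows read 5′ to 3′ on the strand of the gene.
Clspn, chr4:126556730-126557029, + strand: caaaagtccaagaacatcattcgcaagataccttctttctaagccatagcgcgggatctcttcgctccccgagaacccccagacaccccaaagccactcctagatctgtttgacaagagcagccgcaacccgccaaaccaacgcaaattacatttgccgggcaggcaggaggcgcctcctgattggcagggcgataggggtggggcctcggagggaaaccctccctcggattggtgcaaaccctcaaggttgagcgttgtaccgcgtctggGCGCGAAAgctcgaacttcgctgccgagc
Rad51ap1, chr6:126939538-126939837, - strand: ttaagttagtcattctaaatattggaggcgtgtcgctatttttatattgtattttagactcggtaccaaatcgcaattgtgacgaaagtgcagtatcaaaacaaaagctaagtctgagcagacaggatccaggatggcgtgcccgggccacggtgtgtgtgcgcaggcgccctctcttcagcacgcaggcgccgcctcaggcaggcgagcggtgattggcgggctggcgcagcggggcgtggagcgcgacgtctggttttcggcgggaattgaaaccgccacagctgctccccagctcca
Rad54l, chr4:116123641-116123940, - strand, 1 of 2 windows: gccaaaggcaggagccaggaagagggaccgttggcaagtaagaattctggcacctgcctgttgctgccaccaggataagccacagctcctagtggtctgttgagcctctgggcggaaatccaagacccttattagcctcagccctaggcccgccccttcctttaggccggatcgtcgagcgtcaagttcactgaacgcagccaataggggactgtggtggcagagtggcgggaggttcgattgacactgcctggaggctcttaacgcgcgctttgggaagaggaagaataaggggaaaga
Xrcc6, chr15:82016119-82016418, + strand: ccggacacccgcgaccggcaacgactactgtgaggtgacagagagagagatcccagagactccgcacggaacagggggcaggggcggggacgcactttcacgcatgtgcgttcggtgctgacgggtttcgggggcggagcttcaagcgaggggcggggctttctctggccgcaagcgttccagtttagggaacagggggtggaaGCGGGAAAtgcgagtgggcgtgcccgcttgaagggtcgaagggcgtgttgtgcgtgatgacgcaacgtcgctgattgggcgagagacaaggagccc
Trp53bp1, chr2:121271358-121271657, - strand: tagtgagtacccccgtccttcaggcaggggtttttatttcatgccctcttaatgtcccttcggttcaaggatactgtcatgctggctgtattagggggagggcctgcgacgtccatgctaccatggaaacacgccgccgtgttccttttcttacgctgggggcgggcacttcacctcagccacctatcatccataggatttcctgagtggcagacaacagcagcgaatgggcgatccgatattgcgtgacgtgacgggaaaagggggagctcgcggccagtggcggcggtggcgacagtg
An E2F word was found in 1 window each of Clspn, which was high in dividing cells, and Xrcc6, which was not, and in none of the windows shown of the other 3 genes. The Xrcc6 window lies inside the gene as GENCODE draws it, whose first base is at 81987835, so the 2 annotations place the start differently. Over the 25 genes 8 had an E2F word, against 2.26% of 32851 RefSeq windows. Of the 15 genes past 2-fold in both libraries 5 had one, and of the other 10 genes 3. TTTGAA was found in 1 of 25 genes, Bard1, against 17.9% of all windows, and CCAAT, on either strand, in 16 of 25 against 37.4%. A match is a description of letters and not a binding site.

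Within dividing cells some of the genes differed between S-rich and mitotic-rich cells, and a few of them widely. S-rich cells held 3 or more UMIs of the S phase list and fewer than 3 of the mitotic list, and mitotic-rich cells the opposite. They numbered 1944 and 360 in DKO_Skp2het and 1075 and 345 in DKO, and the remaining 1749 and 1568 dividing cells passed both limits. Of the 33 genes 31 had at least 50 UMIs in these cells. In DKO_Skp2het 11 were more than 1.5-fold higher in S-rich cells, against 15.9% of all genes, and 4 in mitotic-rich cells, against 8.88%. In DKO 7 were higher in S-rich cells, against 12.8%, and 3 in mitotic-rich cells, against 8.78%. Medians were 0.23 in DKO_Skp2het and 0.09 in DKO, beside 0.06 and 0.04 over all genes. On the S side the count was above the share of all genes in both libraries at these settings, and on the mitotic side it was near that share. Mitotic-rich cells were deeper, with medians of 3444 and 4505 UMIs in S-rich and mitotic-rich DKO_Skp2het cells and 4371 and 5051 in DKO cells. With counts thinned to 1 depth the DKO counts were 4 and 5, and with a pseudocount of 20 CPM the counts on the S side were 7 in DKO_Skp2het and 2 in DKO. S-rich and mitotic-rich cells also differed in cell type. All neurogenic-like cells passed the mitotic limit in both libraries, so none was S-rich. Of Müller glia-like cells 24.0% in DKO_Skp2het and 26.6% in DKO passed it. The part of cell type in the differences between these states was not tested.

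Msh6, Exo1, Brca2, Clspn, Xrcc6, Chek1 and Topbp1 lay on the S side in both libraries. Atr and Wee1, of the same checkpoint branch as Clspn, Chek1 and Topbp1, lay below 0, at -0.44 and -0.15 in DKO_Skp2het and -0.54 and -0.30 in DKO. Msh6 (GRCm38 chr17:87975062-87990892, + strand, with Fbxo11 on the other), which finds mispaired bases, was at 33.6 CPM in S-rich and 5.23 CPM in mitotic-rich DKO_Skp2het cells (ratio 6.41, 3.43 to 13.5) and at 22.4 and 4.16 CPM in DKO cells (5.38, 2.75 to 12). Exo1 was at 27.6 and 8.90 CPM in DKO_Skp2het cells and 27.4 and 14.8 CPM in DKO cells. Clspn was at 72.8 and 30.9 CPM in DKO_Skp2het cells (2.36, 1.80 to 3.14) and 73.2 and 43.9 CPM in DKO cells (1.67, 1.33 to 2.10). Chek1 had log2 differences of 1.05 and 0.64, Brca2 of 1.12 and 0.62, Topbp1 of 0.91 and 0.73, and Xrcc6 of 1.06 and 0.81. The 7 genes named first were past 1.5-fold in both libraries. Atm, Rad54l, Parp1 and Mre11a were past it in DKO_Skp2het alone, at 0.83, 0.79, 0.67 and 0.66, against 0.33, 0.57, 0.47 and 0.14 in DKO. Whether these 4 genes differ between the libraries was not tested.

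H2afx, Rad21 and Chek2 lay far on the mitotic side. H2afx was at 172 CPM in S-rich and 2084 CPM in mitotic-rich DKO_Skp2het cells (ratio 0.0825, 0.0775 to 0.0877), and at 170 and 1833 CPM in DKO cells (0.0925, 0.0862 to 0.0991). After thinning, 20.7% (18.9 to 22.6) of S-rich and 79.2% (74.6 to 83.2) of mitotic-rich DKO_Skp2het cells held an H2afx UMI, and 21.7% and 79.1% of DKO cells. Unthinned shares were 43.2% and 91.1% in DKO_Skp2het and 51.1% and 92.8% in DKO. In microglia-like cells the thinned shares were 2.44% (0.0617 to 12.9) and 16.7% (5.64 to 34.7). Low-cycle cells had 13.7% and 15.9%, which in DKO is no higher than this background. Rad21 (GRCm38 chr15:51962240-51991747, - strand), the cohesin subunit that is cut when sister chromatids part, was at 98.3 and 395 CPM in DKO_Skp2het cells and 112 and 407 CPM in DKO cells. Chek2, the effector kinase of ATM, was at 8.73 and 41.4 CPM in DKO_Skp2het cells (0.211, 0.151 to 0.295) and 8.13 and 35.1 CPM in DKO cells (0.231, 0.158 to 0.336). Its counterpart Chek1 thus lay on the other side. Fanca passed 1.5-fold on the mitotic side in DKO_Skp2het alone, at -0.65 against 0.09 in DKO.

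Most of the genes peaked in cells that passed both limits, 20 of 33 in DKO_Skp2het and 22 of 33 in DKO. Clspn reached 122 and 118 CPM there, Exo1 47.5 and 47.8 CPM, Usp1 540 and 511 CPM, and Rad51ap1 125 and 118 CPM. The mitotic-rich state was the highest for 5 genes in DKO_Skp2het and 7 in DKO, the S-rich state for 7 and 3, and the low-cycle state for Trp53bp1 alone in both. The same counts over all genes were not computed, and some peaks lie within counting error. Msh6 in DKO was at 22.4 CPM (18.8 to 26.5) in S-rich cells and 22.1 CPM (19.4 to 24.9) in cells past both limits.

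**Figure D2:**
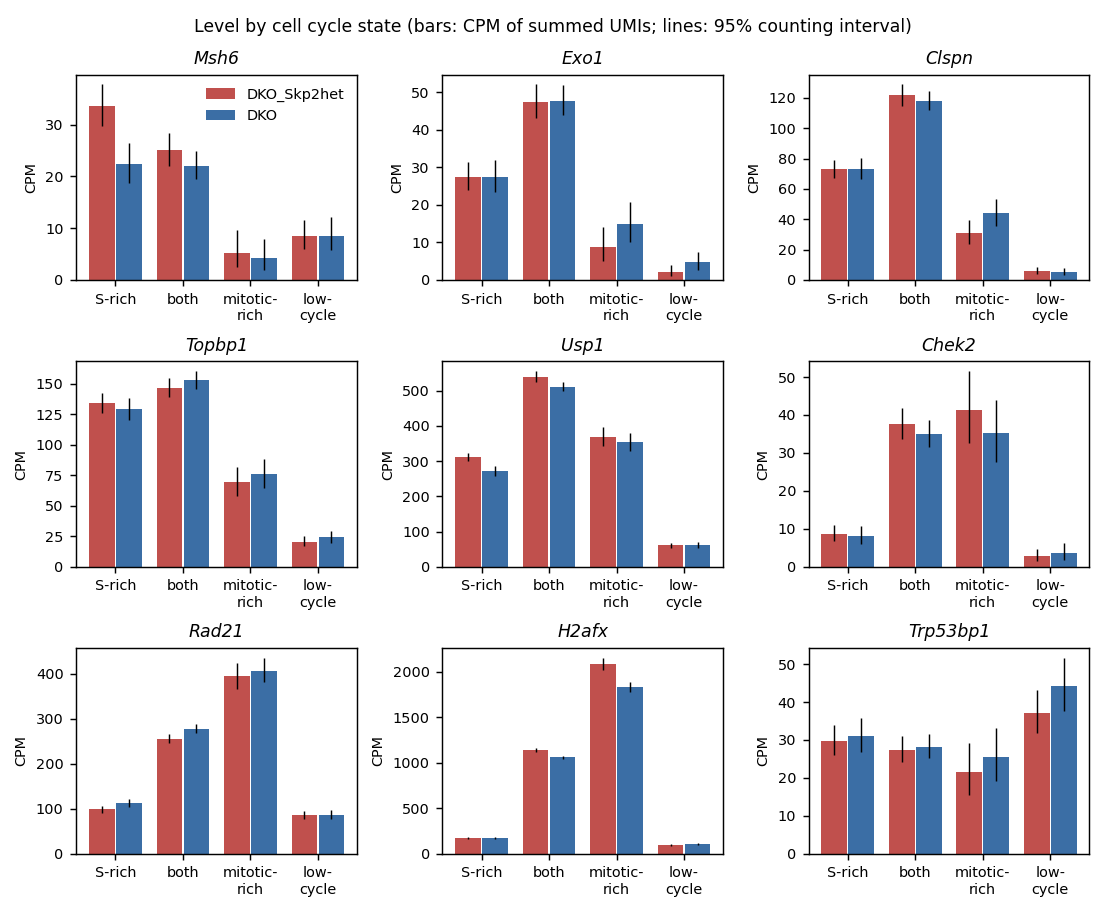
CPM of 9 genes is shown in S-rich cells, cells past both limits, mitotic-rich cells and low-cycle cells, in DKO_Skp2het (red) and DKO (blue), with 95% counting intervals. Msh6 is highest in S-rich cells, in DKO within counting error. Exo1, Clspn and Usp1 are highest in cells past both limits, H2afx and Rad21 in mitotic-rich cells and Trp53bp1 in low-cycle cells.

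**Figure D3:**
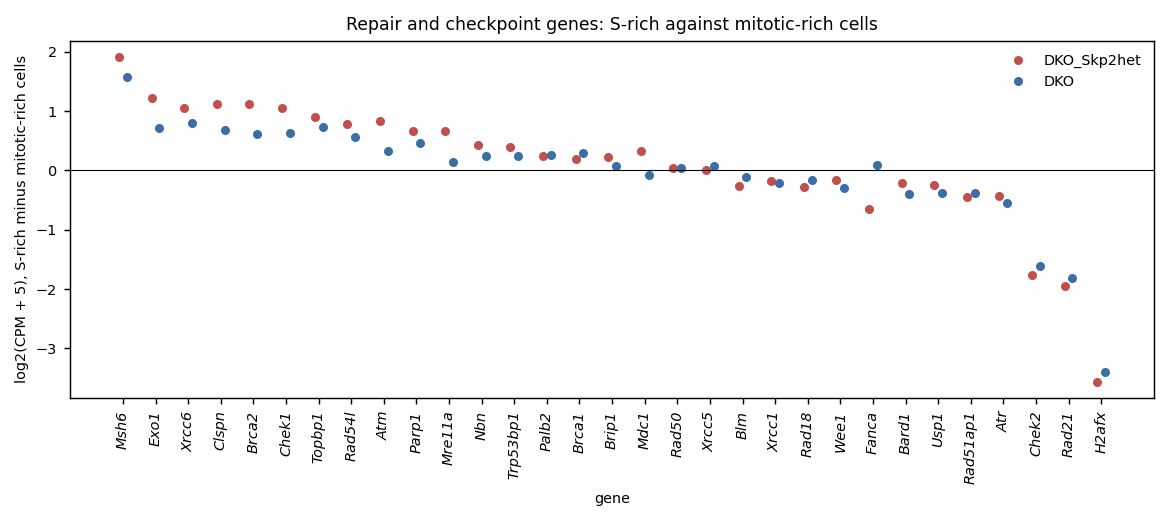
Each of the 31 genes with at least 50 UMIs in both libraries is plotted by its difference in log2(CPM + 5) between S-rich and mitotic-rich cells, in DKO_Skp2het (red) and DKO (blue). Msh6 stands highest, and Chek2, Rad21 and H2afx fall far below 0 in both libraries.

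Between the genotypes the 33 genes differed little. Over all kept cells 12 were higher and 21 lower in DKO_Skp2het, with a median log2 difference of -0.05 beside 0.02 over all genes measured. Past 1.25-fold, 1 gene was higher, against 3.1% of all genes, and none lower, against 2.23%. Summed over the 33, CPM was 2210 in DKO_Skp2het and 2359 in DKO, a ratio of 0.937 (0.926 to 0.948). Without H2afx the sums were 1527 and 1605 CPM (0.951, 0.937 to 0.965). Marker lists of cell types moved beside it, with ratios of 1.27 for Müller glia, 1.27 for progenitors, 1.38 for bipolar cells, 0.774 for immature neurons, 0.690 for Ptf1a lineage precursors and 6.32 for red blood cells. Their part in these sums was not tested. For the median over all kept cells, weighting the clusters equally in both libraries was among the alternatives, which ran from -0.069 to -0.013. In dividing cells the median was -0.03 beside 0.02 over all genes, with 2 genes past 1.25-fold higher, against 4.34%, and none lower, against 3.89%. In low-cycle cells 21 genes were measured, with a median of -0.03 beside -0.00062 over all genes, and 2 were past 1.25-fold higher, against 6.46%, and 2 lower, against 7.54%. In the states themselves, S-rich cells made up 39.1% of DKO_Skp2het and 30.6% of DKO cells, and cells past both limits 35.1% and 44.6%. The mitotic list had a median of -0.16 over all kept cells and the S phase list 0.05. The part of these shares in the values of the 33 genes was not tested beyond the values by state given here.

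Xrcc6 was the gene past 1.25-fold, at 20.7 CPM (495 UMIs) in DKO_Skp2het and 15.2 CPM (357 UMIs) in DKO, a ratio of 1.36 (1.18 to 1.56). The gene (GRCm38 chr15:81987835-82040085, + strand) overlaps Desi1 on the other strand. It was higher in DKO_Skp2het in all 4 states, at 25.1 and 19.9 CPM in S-rich cells and 19.3 and 12.4 CPM in low-cycle cells, though at 9.42 and 9.24 CPM in mitotic-rich cells. Its partner Xrcc5 stood at 21.6 and 18.3 CPM, a ratio of 1.18 (1.03 to 1.34), and was also higher in all 4 states. Msh6 stood at 23.1 CPM in DKO_Skp2het and 18.4 CPM in DKO (1.25, 1.1 to 1.42). In dividing cells it was past 1.25-fold, at 26.6 and 20.2 CPM (1.32, 1.15 to 1.51). Its gap was widest in S-rich cells, at 33.6 CPM in DKO_Skp2het and 22.4 CPM in DKO, and in low-cycle cells it stood at 8.5 and 8.57 CPM. Chek1 was at 21 and 18.2 CPM (1.16, 1.02 to 1.32). Rad50 was at 44.2 and 41 CPM over all kept cells (1.08, 0.988 to 1.18) and at 50.9 and 44.8 CPM in dividing cells (1.14, 1.04 to 1.25).

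Rad21 and H2afx were on the lower side in different ways. Rad21 stood at 180 CPM (4307 UMIs) in DKO_Skp2het and 218 CPM (5093 UMIs) in DKO, a ratio of 0.829 (0.795 to 0.863), and was lower in all 4 states, though in low-cycle cells only at 85.4 and 86.5 CPM (0.987, 0.850 to 1.15). H2afx stood at 684 CPM in DKO_Skp2het and 754 CPM in DKO, a ratio of 0.907 (0.888 to 0.926). By state it was at 2084 CPM (2020 to 2150) in mitotic-rich DKO_Skp2het cells and 1833 CPM (1777 to 1891) in mitotic-rich DKO cells. In cells past both limits it was at 1138 and 1058 CPM, in S-rich cells at 172 and 170 CPM, and in low-cycle cells at 94.1 and 108 CPM. The lower total thus stood beside levels that were higher in DKO_Skp2het in 3 of 4 states. The recombination genes had a median of -0.13, with 8 of 9 lower in DKO_Skp2het over all kept cells, and -0.09 in dividing cells, with 6 of 9 lower. In dividing cells the counting interval of the ratio includes 1 for each of these 9 genes. In cells past both limits 7 of 9 were higher in DKO_Skp2het, in S-rich cells 4, in mitotic-rich cells 2 and in low-cycle cells 5. The share of all genes on each side is not given here, so these counts are not a result about recombination genes. In the cells past both limits Rad51ap1 was at 125 CPM in DKO_Skp2het and 118 CPM in DKO, and Rad54l at 58.0 and 52.1 CPM. Blm, a recombination helicase gene, was at 35.1 and 39.9 CPM (0.880, 0.801 to 0.967), and in low-cycle cells at 10.2 and 16.9 CPM (48 and 61 UMIs). Exo1 was at 28.8 CPM in DKO_Skp2het and 32.8 CPM in DKO over all kept cells, Brip1 at 17.7 and 20.4 CPM, and Rad18 at 25.5 and 29.2 CPM.

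In low-cycle cells Mdc1, which binds phosphorylated H2AX, was at 12.3 CPM in DKO_Skp2het and 7.18 CPM in DKO (58 and 26 UMIs, ratio 1.72, 1.06 to 2.84). Mre11a, the nuclease of the break sensing complex, was at 9.13 and 13.3 CPM there (43 and 48 UMIs, 0.689, 0.446 to 1.06). Of the 93 other repair and checkpoint genes 92 were measured over all kept cells, with a median of 0.03. Among them Fignl1, a recombination gene, was past 1.25-fold higher at 42.9 CPM in DKO_Skp2het and 29.6 CPM in DKO (1.45, 1.31 to 1.60). Fancc, of the Fanconi pathway, was past 1.25-fold lower with 81 and 131 UMIs.

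**Figure D4:**
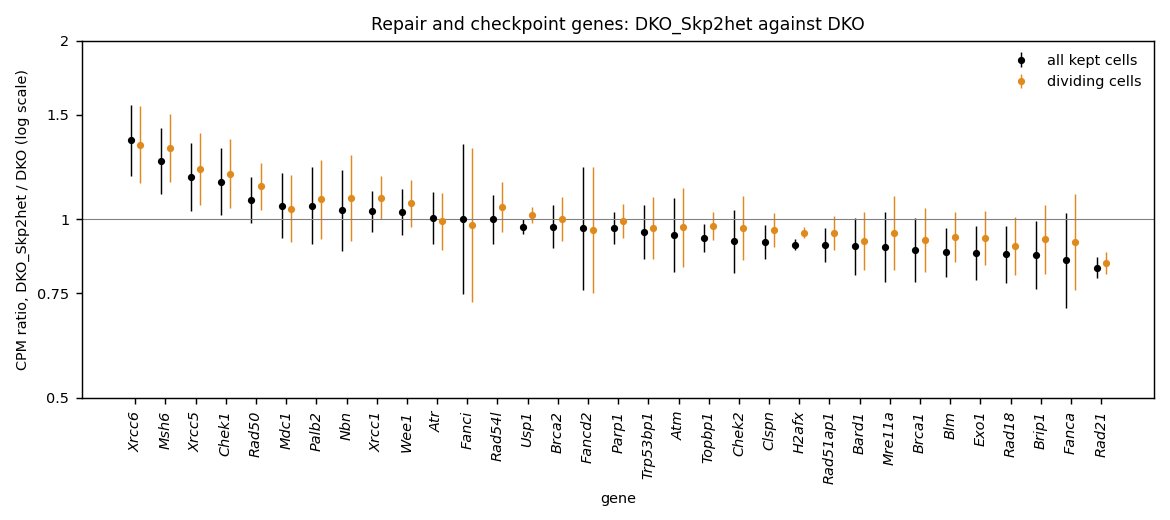
The ratio of CPM in DKO_Skp2het over DKO is plotted on a log scale for each of the 33 genes, over all kept cells (black) and dividing cells (orange), with 95% counting intervals. Xrcc6, Msh6 and Xrcc5 lie above 1 and Rad21 below 1 in both sets of cells.

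By cell class, the summed level of the 33 genes was highest in clusters whose cells were all dividing and, of the classes compared, lowest in amacrine-like cells. H2afx made up 54.7% of the UMIs behind this sum in cluster 1 of DKO_Skp2het and 51.6% in DKO, and the order of the clusters rested on it. Clusters were formed without the 33 genes, the other repair genes, the cell cycle lists and histone genes, and were named from marker lists. The sum was 4400 CPM in DKO_Skp2het and 4070 CPM in DKO in cluster 1, an unnamed cluster led by Tagln2, Iqgap3 and Prc1 whose cells were all dividing, and 4045 and 4102 CPM in neurogenic-like cells, which were all dividing and also led by Ccnb1. Without H2afx the highest sums were those of cluster 10, at 2891 and 2697 CPM, and cluster 8, at 2466 and 2262 CPM. Cluster 1 then held 1992 and 1970 CPM and neurogenic-like cells 1879 and 1975 CPM. Müller glia-like cells, of which 98.7% and 99.2% were called dividing, held 1897 and 1831 CPM with H2afx and 1714 and 1666 CPM without. Only 24.0% and 26.6% of these cells passed the limit of the mitotic list. Cluster 16, an unnamed cluster of 72 and 35 cells, carried the Müller glia list more strongly, at a mean log2 fold of 3.17 against 1.45, but had none of its genes among its top 10. It was 12.5% and 14.3% dividing and held 488 and 516 CPM, so the Müller glia-like class does not stand for all cells with that list. Amacrine-like cells held the least of the classes compared, at 462 and 549 CPM, and 22.5% and 27.2% of them were called dividing. That call rested on the S phase list, since only 0.98% and 0.877% passed the limit of the mitotic list. The mitotic list summed to 204 CPM in dividing and 203 CPM in low-cycle amacrine-like cells of DKO_Skp2het, and to 329 and 219 CPM in DKO. Microglia-like cells held 367 and 378 CPM. Free RNA was not subtracted. Among single genes, 20 of 33 in DKO_Skp2het and 26 in DKO had their lowest CPM in amacrine-like cells. The same share over all genes was not computed. This class had 102 and 114 cells with 256 and 379 UMIs of the 33 genes, and some of these lowest values were 0, as for Brca1 and Brip1 in DKO_Skp2het. Trp53bp1 was highest in cluster 10 of DKO_Skp2het, at 49.8 CPM, and in rod-like cells of DKO, at 49.2 CPM. It was lowest in cluster 1 of DKO_Skp2het, at 13.1 CPM, and in cluster 4 of DKO, at 18.1 CPM.

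The summed level was lower in DKO_Skp2het in the 4 neuronal classes compared. In rod-like cells it was 922 CPM in DKO_Skp2het and 1185 CPM in DKO, a ratio of 0.778 (0.720 to 0.840). In those cells 25.6% and 51.0% were dividing, the mitotic list summed to 486 and 1408 CPM, and the median depth was 4369 and 6842 UMIs. Within dividing rod-like cells the ratio was 0.942 (0.852 to 1.04) and within low-cycle ones 0.888 (0.783 to 1.01), and without doublet removal it was 0.924 over the class. Without H2afx it was 0.841 (0.771 to 0.916) over the class and 1.05 (0.939 to 1.18) in its dividing cells. With counts thinned to 1 depth it was 0.633. H2afx was at 153 and 270 CPM in rod-like cells (0.566, 0.472 to 0.677), Usp1 at 111 and 158 CPM, and Xrcc6 at 37.9 and 21.3 CPM (1.78, 1.09 to 2.93).

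In immature neuron-like cells the sum was 994 CPM in DKO_Skp2het and 1329 CPM in DKO, a ratio of 0.748 (0.710 to 0.788), with 54.9% and 77.9% dividing. Here the ratio was also below 1 within dividing cells, at 0.839 (0.791 to 0.889), and within low-cycle cells, at 0.807 (0.708 to 0.921). The mitotic list summed to 1478 and 2315 CPM in the dividing cells, and to 234 and 245 CPM in the low-cycle cells. Topbp1 was at 56.9 and 93.5 CPM (0.608, 0.490 to 0.752), Blm at 19.1 and 41.7 CPM (0.458, 0.317 to 0.650) and Bard1, the partner of BRCA1, at 8.06 and 18.5 CPM (0.435, 0.243 to 0.748). Mdc1, Xrcc5 and Trp53bp1 had ratios of 1.14, 1.17 and 1.08, each with an interval that includes 1.

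Bipolar-like cells held 630 CPM in DKO_Skp2het and 797 CPM in DKO (0.790, 0.704 to 0.887). Their low-cycle cells had a ratio of 0.983 (0.842 to 1.15) and their dividing cells, 42 and 32 in number, 0.694 (0.575 to 0.834). In those dividing cells the mitotic list summed to 396 and 1397 CPM, and the median depth was 4079 and 8316.5 UMIs. The part of these differences in the ratio was not tested. Amacrine-like cells had a ratio of 0.840 (0.714 to 0.987). It was 0.850 (0.711 to 1.02) without H2afx, 0.774 (0.561 to 1.06) in their dividing cells and 0.884 (0.729 to 1.07) in their low-cycle cells. The interval over the whole class lies below 1, and those without H2afx and in either state include 1. In the classes and clusters whose cells were nearly all called dividing the lowest ratio was 0.947 (0.894 to 1.00) in cluster 0, led by Hes5 and Sox8. In that cluster 14.3% of DKO_Skp2het and 19.8% of DKO cells passed the limit of the mitotic list. The highest ratio was 1.09 (1.05 to 1.13) in cluster 8, led by Epha8 and Foxn4. Without H2afx the ratio of cluster 1 was 1.01 (0.972 to 1.05), against 1.08 (1.05 to 1.11) with it, and that of cluster 8 stayed at 1.09 (1.04 to 1.14). In Müller glia-like cells the ratio was 1.04 (0.990 to 1.08), with Msh6 at 46.9 and 24.8 CPM (1.89, 1.32 to 2.75).

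**Figure D5:**
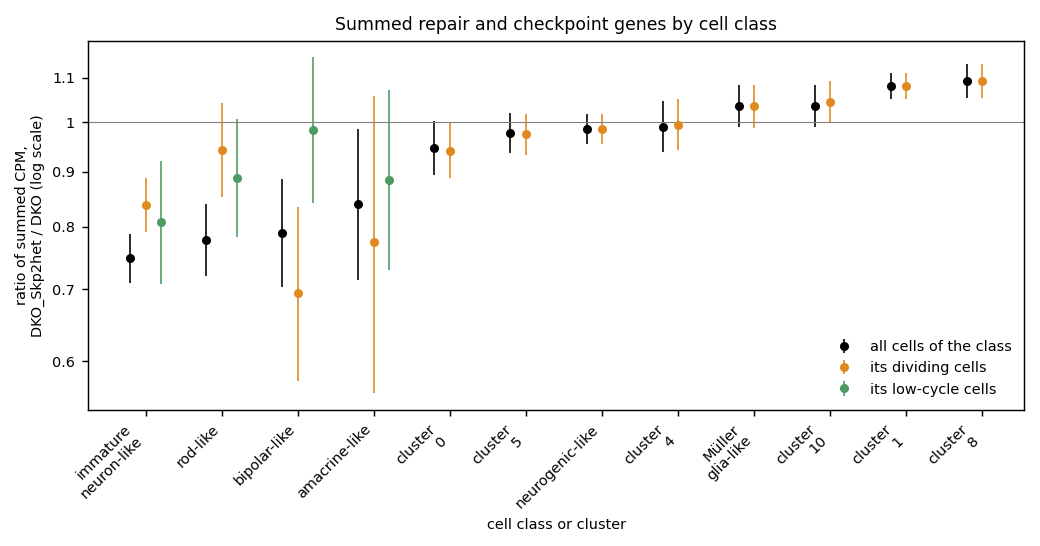
The ratio of summed CPM of the 33 genes in DKO_Skp2het over DKO is plotted on a log scale by cell class or cluster, for all its cells (black), its dividing cells (orange) and, in the 4 neuronal classes, its low-cycle cells (green), with 95% counting intervals. The 4 neuronal classes lie below 1 over all their cells, and clusters 1 and 8 lie above 1, of which cluster 1 is at 1.01 without H2afx.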

How the data were processed

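Read processing was done by the authors with Cell Ranger 2.2.0 on mm10, per the submitters' processing notes, and per the labels' protocols the libraries were made with a droplet-based 3′ kit. What was deposited is an unnormalized UMI count for each gene in each barcode. The barcode filter of the authors is not given in the sources used here. The 33 genes, the gene lists and the alternatives were chosen with earlier results of these data known.

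Barcodes under 500 genes or over 20% mitochondrial UMIs were removed (2 DKO_Skp2het and 1 DKO). The highest doublet scores, from 2 simulated doublets per cell, were removed at 0.8% per 1000 barcodes (216 and 105). Clusters came from 2000 variable genes, 30 principal components, 15 neighbours and leidenalg 0.10.2 at resolution 1.0. A cluster was named from marker lists with a mean log2 fold of at least 1 at least 3 markers past 2-fold and more of them among its top 10 genes than any other list, and compared with at least 100 cells in each library. Totals were 25766024 UMIs in DKO_Skp2het and 24413761 in DKO. Counts were summed per population and given as CPM. Ratios carry exact 95% intervals for 2 Poisson counts and shares Clopper-Pearson intervals, which treat UMIs of 1 cell as independent. Genes with at least 50 UMIs over both sides were measured, with a pseudocount of 5 CPM. The folds of 1.25, 1.5 and 2 were chosen with the data in view. With 1 library per genotype no test was run. Genes given with full values are those with the most UMIs and the 5 highest and 5 lowest in each comparison, and some further members are given for their role or class. Of 27998 gene identifiers 27722 matched the GENCODE annotation of GRCm38. Promoter windows are from RefSeq. The tools were scipy 1.17.1, numpy 2.4.6, Python 3.11.15, scikit-learn 1.9.0, igraph 0.11.9 and matplotlib 3.10.9, and the steps were tested on simulated data. Alternatives covered cell filters, doublets, depth, pseudocount, scaling, UMI minimum, state rules, clustering resolution and equal cluster weights in both libraries. Some results are not reported here.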

Additional observations from a re-analysis of the deposited data

Results flagged for a closer look

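In 6 of the 33 genes the ratio of DKO_Skp2het over DKO lay above 1 in some cell classes and below 1 in others, each beyond its 95% counting interval. The differences between classes were not tested, since there is 1 library per genotype, and each pair is the most distant one of that gene. Each gene was compared over 12 classes and clusters, and how many such pairs counting error gives was not computed. The same count over all genes is not given here.

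H2afx had a ratio of 1.15 (1.1 to 1.19) in cluster 1 and 0.566 (0.472 to 0.677) in rod-like cells, which lie 1.00 apart on the log2 scale (0.997). Clspn had 1.26 (1.04 to 1.52) in cluster 8 and 0.560 (0.315 to 0.968) in rod-like cells, 1.00 apart. Usp1 had 1.18 (1.08 to 1.29) in cluster 10, led by Txnip and Myc, and 0.704 (0.563 to 0.877) in rod-like cells, 0.73 apart (0.726). Rad51ap1 had 1.24 (1.02 to 1.49) in cluster 8 and 0.60 (0.420 to 0.863) in cluster 0, 0.96 apart (0.956). Atr had 1.89 (1.09 to 3.49) in cluster 4, led by Rgs13 and Pkib, and 0.601 (0.412 to 0.866) in immature neuron-like cells, 1.38 apart. Trp53bp1 had 1.70 (1.1 to 2.64) in cluster 10 and 0.548 (0.294 to 0.993) in bipolar-like cells, 1.41 apart. Rod-like cells also differed in their share of dividing cells, 25.6% in DKO_Skp2het and 51.0% in DKO, and its part in these values was not tested.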

How the results depend on the processing

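Of 247 recomputed medians, list counts and class ratios 221 stayed within the limits set for them and 26 moved. For a median the limit was the half-width of the counting interval of the middle gene. For a count it was a 1.5-fold change, and for a class ratio its own counting interval. Of 405 recomputed values of single genes 393 stayed, 12 moved and 0 turned their direction. Here the limit was the half-width of the counting interval of the gene itself, so a gene with few UMIs had a wide one. Xrcc6 between S-rich and mitotic-rich DKO cells ran from 0.21 to 1.03. Blm between genotypes in low-cycle cells ran from -0.67 to -0.13. Both counted as stayed, though they fell short of the fold used to count them at some settings. The count of genes past 2-fold between dividing and low-cycle cells was 14 in DKO_Skp2het and 13 in DKO with a pseudocount of 20 CPM, and 12 and 11 with the mitotic list alone. The DKO_Skp2het median was then 0.92 and 0.70. On the S side the count was 7 in DKO_Skp2het and 2 in DKO with a pseudocount of 20, and in DKO 4 with thinned counts and 4 with a state limit of 5 UMIs. On the mitotic side the DKO count was 5 with thinned counts, 5 with at least 20 UMIs and 5 with no minimum. The rod-like class ratio was 0.924 without doublet removal, 0.633 with thinned counts, 0.942 in dividing and 0.888 in low-cycle cells, and 0.841 without H2afx. The immature neuron-like ratio was 0.683 with thinned counts, 0.839 in dividing and 0.807 in low-cycle cells, and the bipolar-like ratio 0.694 and 0.983. The neurogenic-like ratio was 1.05 at resolution 0.5 and 0.953 at 1.5, and 0.951 without H2afx. Splits by state within classes, sums without H2afx and a second thinning draw were chosen after seeing the data. Where these values moved, the cause was not tested. The median between genotypes ran from -0.05 to 0.02 in dividing cells and from -0.15 to 0.04 in low-cycle cells, so its sign was not stable there, nor was that of the S-rich over mitotic-rich median in DKO (-0.05 to 0.16). Low-cycle values rest on few UMIs. No paired analysis was possible because each genotype has 1 library.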

Other observations

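Genes that p53 activates, such as those of cell cycle arrest and death, numbered 14 in the list used here. Over all kept cells 6 were higher and 8 lower in DKO_Skp2het, with a median log2 difference of -0.03, and in dividing cells the median was -0.0045 with 7 on each side. Between dividing and low-cycle cells their median was 0.31 in DKO_Skp2het and 0.39 in DKO. Immediate early genes, which also respond to tissue dissociation, numbered 12, of which 11 had at least 50 UMIs over all kept cells, with a median of 0.26 and 10 of 11 higher in DKO_Skp2het.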
